A study of Arabidopsis thaliana with 33 samples.

Results

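The genes described here are 10 Arabidopsis genes for late embryogenesis abundant (LEA) and related proteins linked to drying: LEA4-1, LEA4-2, LEA4-5, LEA7, LEA14, RD29B, RAB18, XERO2, AT3G02480 and AT3G15670. They were picked by gene identifier from the 33557 genes of the authors' deposited table, with the values of that table known to those who picked them. Their levels across the genotypes are therefore given as a description, and no test of that pattern is offered. The catalogue of the Arabidopsis LEA family used for comparison holds 51 genes, 9 of them among the 10. RD29B, a hydrophilic drought-response protein outside the LEA classes, is the exception.

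Levels were measured by sequencing polyadenylated RNA from shoots (the aerial parts) of untreated 20-day-old plants, which had spent 6 days on MS medium before 14 days in soil. All carry the same labelled hour of collection, 15:00. The plants were the double mutants ein5-1 dcl4-2 and ski2-2 dcl4-2, the triple mutants that add dcl2-1 to each of these, the double mutants ski2-2 dcl2-1 and ein5-1 dcl2-1, the single mutants dcl2-1, dcl4-2, ein5-1 and ski2-2, and wild-type Col-0. Each of the 11 genotypes had 3 libraries, which the design text calls biological replicates, and each mutated gene is represented by a single allele. EIN5 degrades RNA from its 5′ end in the cytoplasm, SKI2 is a helicase that feeds RNA into the exosome for decay from the 3′ end, and DCL4 and DCL2 are Dicer-like enzymes, which make small interfering RNAs from double-stranded RNA. The title of the series names the siRNA class that DCL2 produces, translational repression and stress adaptation.

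LEA proteins are mostly hydrophilic and disordered, and they were first found in drying seeds, where they are thought to protect membranes and other proteins from water loss. In leaves many of their genes are switched on by drought, cold or the hormone abscisic acid (ABA). ABA bound to its receptors inhibits phosphatases of the PP2C class, which frees SnRK2 kinases to activate bZIP factors of the ABF group, and these bind promoter sequences called ABREs. Cold and drought also act through DREB factors, which bind a different sequence, the DRE.

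The promoters are shown first, because promoter sequence was not used to choose the genes. The genes were chosen as linked to drying, however, and many genes of that kind respond to ABA. Their shares of ABRE and DRE cores are therefore not independent of the choice. In the 300 bases before the annotated gene start, read from the RefSeq TAIR10.1 genome, the ABRE core ACGTG was searched on both strands, with overlapping matches counted as 1. It was found in 9 of the 10 genes, and at least 2 separate copies were found in the same 9. Across 27443 protein-coding genes with a window of this length, 25.6% held at least 1 copy and 5.86% at least 2. XERO2 had none. A longer form, ACGTGNC, was found in 8 of the 10 genes and in 9.46% of all promoters, and every such match overlaps an ACGTG match. The DRE core CCGAC was found in 8 of the 10 genes and in 13.9% of all promoters. LEA14 and RAB18 had none, and XERO2 had 3. Of 27 ACGTG copies in the 10 windows, 22 began within 150 bases of the gene start. That placement was not compared with other promoters. Windows of 6 genes are printed over their last 200 bases before the start, on the strand of the gene and in the 5′ to 3′ direction, with ACGTG and CCGAC in capitals on either strand (CACGT and GTCGG are the same cores read from the other strand). RD29B (chr5:21236821-21237020, plus strand) and LEA7 (chr1:19619524-19619723, plus strand) had the most ABRE cores, with 4 each in the full window. LEA4-5 (chr5:2090431-2090630, minus strand) and AT3G02480 (chr3:512020-512219, plus strand) hold cores of both kinds. LEA14 (chr1:172949-173148, minus strand) holds ABRE cores alone, and XERO2 (chr3:18940443-18940642, plus strand) DRE cores alone.
RD29B: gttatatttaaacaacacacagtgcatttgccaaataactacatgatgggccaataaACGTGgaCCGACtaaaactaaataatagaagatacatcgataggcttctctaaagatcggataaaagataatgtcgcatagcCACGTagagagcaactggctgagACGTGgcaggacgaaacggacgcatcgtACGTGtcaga
LEA7: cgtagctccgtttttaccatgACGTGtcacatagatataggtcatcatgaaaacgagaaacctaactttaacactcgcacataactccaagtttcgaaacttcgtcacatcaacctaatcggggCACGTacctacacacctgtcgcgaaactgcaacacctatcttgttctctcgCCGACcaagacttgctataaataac
LEA4-5: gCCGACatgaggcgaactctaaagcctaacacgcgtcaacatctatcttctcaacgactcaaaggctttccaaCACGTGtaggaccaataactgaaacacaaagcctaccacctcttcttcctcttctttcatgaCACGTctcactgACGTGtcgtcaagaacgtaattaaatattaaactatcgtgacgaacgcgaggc
AT3G02480: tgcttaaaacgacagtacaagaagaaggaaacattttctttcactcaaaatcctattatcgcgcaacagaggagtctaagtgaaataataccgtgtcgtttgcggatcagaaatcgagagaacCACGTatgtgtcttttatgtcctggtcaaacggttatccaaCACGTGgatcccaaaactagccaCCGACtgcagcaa
LEA14: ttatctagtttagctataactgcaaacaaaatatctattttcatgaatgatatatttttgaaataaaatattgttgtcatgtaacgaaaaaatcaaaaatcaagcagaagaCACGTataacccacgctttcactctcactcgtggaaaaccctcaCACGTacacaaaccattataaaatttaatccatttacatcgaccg
XERO2: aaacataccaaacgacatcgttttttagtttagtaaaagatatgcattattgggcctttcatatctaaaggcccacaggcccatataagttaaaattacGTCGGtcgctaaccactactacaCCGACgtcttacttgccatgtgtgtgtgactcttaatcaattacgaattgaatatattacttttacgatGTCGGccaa
A match is a description of letters and does not show that a factor binds there.

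**Figure D1:**
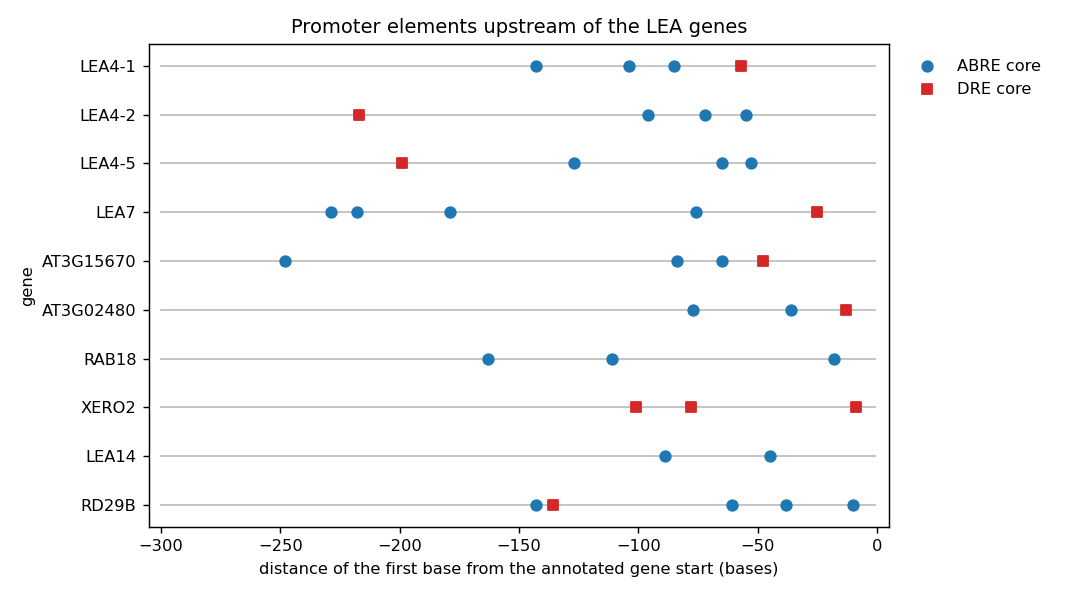
Positions of ABRE cores (circles) and DRE cores (squares) in the 300 bases before the annotated start of each gene, as the distance in bases of the first base of the match from the start. Every gene but XERO2 has at least 2 ABRE cores, and XERO2 has 3 DRE cores.

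These windows are not all free of other genes. The whole RAB18 window lies inside the neighbouring gene AT5G66410, which runs the other way and overlaps the RAB18 gene itself by a few bases. That neighbour was at 14.5 and 19.0 FPKM in ein5-1 dcl4-2 and ski2-2 dcl4-2, against 24.3 FPKM in Col-0. The windows of LEA4-1, XERO2 and LEA4-5 overlap other genes over 111, 86 and 39 bases. LEA7 shares its 3′ part with AT1G52695 on the opposite strand, and the labels do not state whether counting used strand, but that gene was listed at 0 in all 11 genotypes.

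Levels are in FPKM, in which the fragment number of a gene is divided by its transcript length and by the size of the library, so that genes of different length share a scale. The authors' deposited table holds a single FPKM per gene and genotype, pooled over its libraries, so no value has an SD or an n, and the spread between libraries cannot be seen. Read depth is unknown. FPKM sums per genotype were 753957 to 1352350. For 8 comparisons the authors' deposited table also gives a log2 ratio and a q value from Cuffdiff. Here rose and fell mean that the q was at most 0.05 and the ratio was at least 1 in size on the log2 scale. The gene also had to reach 1 FPKM in a compared genotype. Where a compared genotype was listed at 0 there is no finite ratio, and the size condition was taken as met. Of the mutated genes, DCL2 had 1.23 to 2.35 FPKM where dcl2-1 was present, against 4.89 to 9.02 FPKM where it was not, and EIN5 had 6.88 to 11.2 FPKM where ein5-1 was present, against 13.4 to 20.8 FPKM where it was not. The FPKM of SKI2 and DCL4 overlapped between genotypes with and without ski2-2 and dcl4-2, so their mRNA does not check those labels.

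All 10 genes were highest in the 2 double mutants that combine dcl4-2 with a decay mutation. Their summed FPKM was 2759 in ein5-1 dcl4-2 and 3221 in ski2-2 dcl4-2, against 153 in Col-0 and at most 399.9 in any of the other 9 genotypes. In both doubles every gene stood above all 9 other genotypes, which was also the case for 18.7% of the 20704 genes that reached 1 FPKM anywhere. Since the genes were chosen with these values known, nothing is read from that count. In bulk tissue, more cells of a type and more RNA per cell cannot be told apart.

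**Figure D2:**
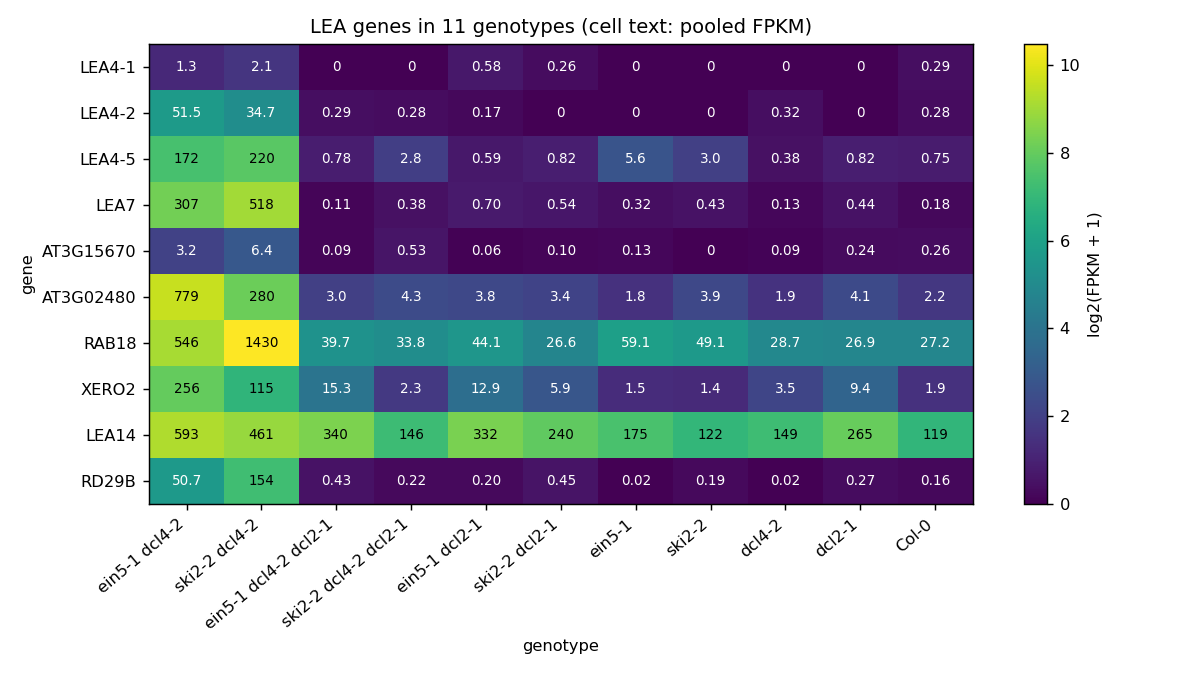
Pooled FPKM of the 10 genes (rows) in the 11 genotypes (columns), coloured by log2(FPKM + 1) and printed in each cell. The 2 left columns, the doubles with dcl4-2, hold the highest value of every row, and RAB18 and LEA14 are the rows with levels above 20 FPKM in every genotype.

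RAB18 and LEA14 carried most of the signal outside the doubles. Together they made up 94.3% to 96.6% of the summed FPKM of the 10 genes in the other 9 genotypes, and 41.3% in ein5-1 dcl4-2 and 58.7% in ski2-2 dcl4-2. The other 8 genes made up the rest, and were thus a larger share of a larger sum in the doubles.

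The LEA4 proteins, of the LEA_1 class, are small proteins shown in Arabidopsis to help plants tolerate drying. LEA4-5 (AT5G06760, chr5:2089445-2090430, TAIR10.1) had 172 FPKM in ein5-1 dcl4-2 and 220 FPKM in ski2-2 dcl4-2. In the other 9 genotypes it had 0.379, 0.816 and 5.56 FPKM (lowest, median and highest), the highest being ein5-1. The groups did not overlap. According to the authors' deposited table it rose over Col-0 in both, with log2 ratios of 7.85 (q = 0.000201) and 8.22 (q = 0.000211). LEA4-2 (AT2G35300, chr2:14862779-14863412) had 51.5 FPKM in ein5-1 dcl4-2 and 34.7 FPKM in ski2-2 dcl4-2, against 0.320 FPKM at most elsewhere, and was listed at 0 in 4 genotypes. The authors' deposited table gives it log2 ratios of 7.53 and 6.97 over Col-0 but q values of 0.228 and 0.237, so it is not counted as having risen there. LEA4-1 (AT1G32560, chr1:11774484-11775442) was the lowest of the 10, with 1.32 FPKM in ein5-1 dcl4-2 and 2.08 FPKM in ski2-2 dcl4-2, against 0.582 FPKM at most elsewhere. It was listed at 0 in 6 of the other 9 genotypes. Its q values over Col-0 in the authors' deposited table were 0.120 and 0.0747.

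The LEA_4 class forms amphipathic helices as it dries. LEA7 (AT1G52690, chr1:19619724-19621534) had the widest gap of all 10: it had 307 FPKM in ein5-1 dcl4-2 and 518 FPKM in ski2-2 dcl4-2, against 0.111, 0.380 and 0.698 FPKM (lowest, median and highest) in the other 9 genotypes. Its lower double was 439 times its highest other genotype. According to the authors' deposited table it rose over Col-0, with log2 ratios of 10.73 (q = 0.0344) and 11.50 (q = 0.0253), so its q is closer to the threshold than that of genes with far smaller ratios. AT3G02480 (chr3:512220-513036), a small LEA_4 gene with no symbol in the files, had 779 FPKM in ein5-1 dcl4-2 and 280 FPKM in ski2-2 dcl4-2, against 1.83, 3.36 and 4.30 FPKM elsewhere. It was the highest of the 10 genes in ein5-1 dcl4-2. AT3G15670 (chr3:5309886-5310988), of the same class, stayed low, with 3.22 FPKM in ein5-1 dcl4-2 and 6.40 FPKM in ski2-2 dcl4-2, against 0.530 FPKM at most elsewhere. It rose over Col-0 in both doubles according to the authors' deposited table, with q values of 0.00997 and 0.0105.

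RAB18 and XERO2 are dehydrins, a LEA class with members that bind membranes. RAB18 (AT5G66400, chr5:26518277-26519447), a standard marker of ABA response in Arabidopsis, had 546 FPKM in ein5-1 dcl4-2 and 1430 FPKM in ski2-2 dcl4-2, against 26.6, 33.8 and 59.1 FPKM (lowest, median and highest) in the other 9. It was the highest of the 10 genes in ski2-2 dcl4-2, and its lower double was 9.23 times the highest other genotype. XERO2 (AT3G50970, chr3:18940643-18941611), which is induced by cold, had 256 FPKM in ein5-1 dcl4-2 and 115 FPKM in ski2-2 dcl4-2, against 1.37, 3.51 and 15.3 FPKM elsewhere. According to the authors' deposited table RAB18 rose over Col-0 with log2 ratios of 4.32 and 5.73, and XERO2 with 7.11 and 5.96.

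LEA14 (AT1G01470, chr1:171525-172948), a LEA_2 protein that keeps a folded shape, had the smallest ratios. It was at 593 FPKM in ein5-1 dcl4-2 and 461 FPKM in ski2-2 dcl4-2, against 119, 175 and 340.2 FPKM elsewhere, so that its lower double was 1.36 times its highest other genotype. Its log2 ratios over Col-0 in the authors' deposited table were 2.31 and 1.96. RD29B (AT5G52300, chr5:21237021-21239531) had 50.7 FPKM in ein5-1 dcl4-2 and 154 FPKM in ski2-2 dcl4-2, against 0.0178, 0.200 and 0.451 FPKM elsewhere, and rose over Col-0 with log2 ratios of 8.33 and 9.94 in the authors' deposited table. Every RD29B value outside the doubles was under 1 FPKM.

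**Figure D3:**
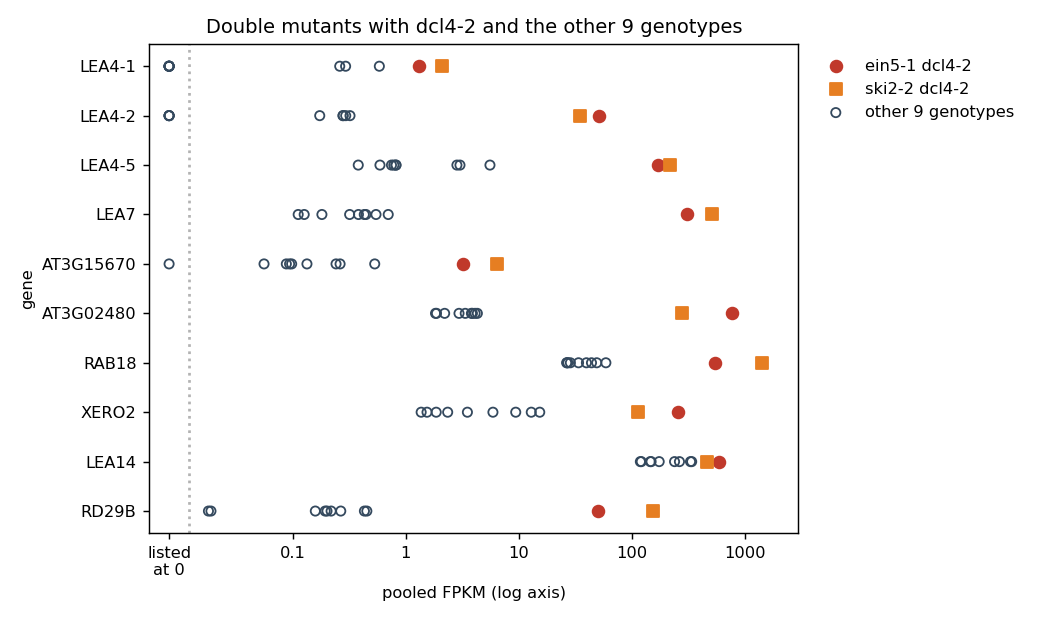
Pooled FPKM (log axis) of each gene in ein5-1 dcl4-2 (circle), ski2-2 dcl4-2 (square) and the other 9 genotypes (open circles), with values listed at 0 at the left edge. The filled symbols lie to the right of all open circles in every row, by the widest margin for LEA7 and the narrowest for LEA14.

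Counted according to the authors' deposited table, 8 of the 10 genes rose in ein5-1 dcl4-2 over Col-0, where 20.4% of 19493 genes did. In ski2-2 dcl4-2 over Col-0, 8 of the 10 rose, where 15.1% of 19717 genes did. LEA4-1 and LEA4-2 had no call in either. The median difference of the 10 genes on the log2(FPKM + 1) scale was 5.42 and 5.50, against 0.13 and 0.06 for all genes tested. These comparisons share the Col-0 libraries, and the choice of genes drew on them, so the counts are a description.

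All 10 genes were lower in the single mutants of a pair than in its double. Over ein5-1, ein5-1 dcl4-2 had 8 of the 10 genes higher according to the authors' deposited table, where 16.3% of all genes tested were. RD29B was at 50.7 FPKM in ein5-1 dcl4-2 and 0.0178 FPKM in ein5-1 (q = 0.330 in the authors' deposited table), and AT3G15670 was at 3.22 and 0.133 FPKM (q = 0.0943 there). Over dcl4-2, ein5-1 dcl4-2 had 6 of the 10 higher according to the authors' deposited table, where 19.7% of genes were. ski2-2 dcl4-2 had all 10 higher than ski2-2 (14.2% of genes) and 6 of the 10 higher than dcl4-2 (14.7% of genes), according to the authors' deposited table. LEA4-2, LEA7, RD29B and AT3G15670 had no call over dcl4-2 in either double. LEA7 is the extreme case, with 518 FPKM in ski2-2 dcl4-2, 0.126 FPKM in dcl4-2 and q = 0.346 in the authors' deposited table. LEA4-1 was called over dcl4-2 at 1.32 FPKM in ein5-1 dcl4-2 and 2.08 FPKM in ski2-2 dcl4-2, against a listed 0. The calls of LEA4-1 and LEA4-2 over ein5-1 and ski2-2, and of AT3G15670 over ski2-2, were also against a listed 0. Within these 10 genes the deposited q did not follow the size of the difference. Each of the calls against a listed 0 carried the smallest Cuffdiff q of its comparison, 0.000201 for ein5-1 dcl4-2 and 0.000211 for ski2-2 dcl4-2. RD29B, at 0.0188 FPKM in dcl4-2, had q values of 0.333 and 0.346 over dcl4-2 in the authors' deposited table. What set the q was not tested. Both sets share the dcl4-2 libraries.

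A double mutant can be set against what its single mutants give when their differences from Col-0 are added on the log2(FPKM + 1) scale. The 10 genes lay above that sum by a median of 5.36 in ein5-1 dcl4-2 and 5.03 in ski2-2 dcl4-2, against 0.07 and 0.03 for all genes tested. AT3G02480 had the largest excess in ein5-1 dcl4-2 at 8.27, and LEA7 in ski2-2 dcl4-2 at 8.57. The smallest were 1.44 for LEA14 in ein5-1 dcl4-2 and 1.60 for LEA14 in ski2-2 dcl4-2. Pooled values allow no test of this excess.

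In the triple mutants, which lack DCL2 as well, most of the genes were low again. According to the authors' deposited table, 6 of the 10 genes fell in ein5-1 dcl4-2 dcl2-1 relative to ein5-1 dcl4-2, where 19.1% of all genes tested fell, and 9 of the 10 fell in ski2-2 dcl4-2 dcl2-1 relative to ski2-2 dcl4-2, where 14.3% fell. RAB18 was at 39.7 FPKM in ein5-1 dcl4-2 dcl2-1 and 546 FPKM in ein5-1 dcl4-2, and at 33.8 FPKM in ski2-2 dcl4-2 dcl2-1 and 1430 FPKM in ski2-2 dcl4-2. AT3G02480 was at 2.96 and 4.30 FPKM in the 2 triples, against 779 and 280 FPKM in their doubles. LEA4-1 was listed at 0 in both triples and is counted among the genes that fell in each. The median gene of the 10 kept 0.709% of its double's FPKM in ein5-1 dcl4-2 dcl2-1 and 1.41% in ski2-2 dcl4-2 dcl2-1.

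LEA14 and XERO2 stood apart in the ein5-1 triple. LEA14 was at 57.3% of its level in the double, with 340.2 FPKM in ein5-1 dcl4-2 dcl2-1, 593 FPKM in ein5-1 dcl4-2 and 119 FPKM in Col-0. In ein5-1 dcl2-1, without dcl4-2, it was at 332 FPKM. In the authors' deposited table its log2 ratio between triple and double was -0.80 with a q of 0.000201, short of the size used here. XERO2 was at 15.3 FPKM in ein5-1 dcl4-2 dcl2-1, 8.26 times its Col-0 level of 1.86 FPKM, though far under the 256 FPKM of the double. It was at 12.9 FPKM in ein5-1 dcl2-1. In ski2-2 dcl4-2 dcl2-1 the levels were 146 FPKM for LEA14 and 2.35 FPKM for XERO2, 1.23 and 1.26 times Col-0. LEA4-2, LEA7 and AT3G15670 were at 0.293, 0.111 and 0.0934 FPKM in ein5-1 dcl4-2 dcl2-1 without passing the q of the authors' deposited table.

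**Figure D4:**
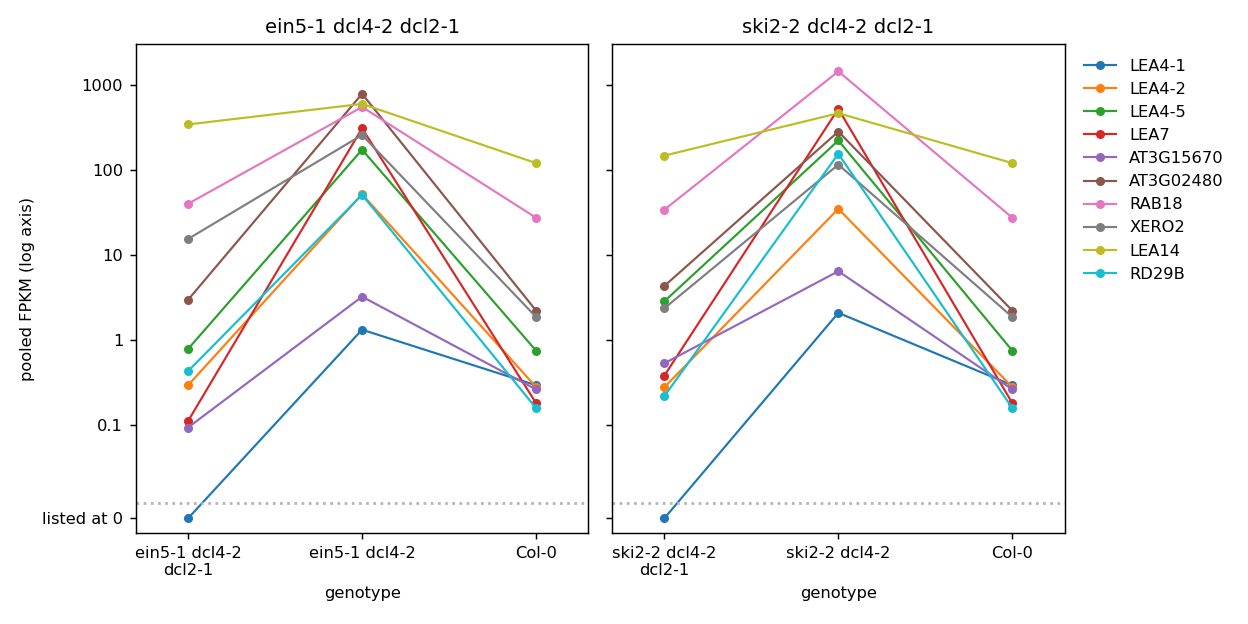
Pooled FPKM (log axis) of the 10 genes in each triple mutant, its double mutant and Col-0, joined by lines per gene, for the ein5-1 set (left) and the ski2-2 set (right), with values listed at 0 at the bottom. Every line peaks at the double, and between double and triple the LEA14 line of the ein5-1 set drops least.

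The doubles did not share a single order of levels. RAB18 and RD29B were higher in ski2-2 dcl4-2 than in ein5-1 dcl4-2, 2.62 and 3.03 times in FPKM, while AT3G02480 and XERO2 were higher in ein5-1 dcl4-2 than in ski2-2 dcl4-2, 2.78 and 2.23 times. By a log2(FPKM + 1) difference of at least 1, used here in place of a test, these were 2 genes higher in ski2-2 dcl4-2 (6.91% of all genes) and 2 lower (13.0%). LEA7, AT3G15670, LEA4-1 and LEA4-5 were also higher in ski2-2 dcl4-2, by 1.28 to 1.99 times, and LEA4-2 and LEA14 lower, at 0.673 and 0.777 times. Without library values no neighbour in either order can be called different from the next.

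Among the 9 genotypes other than these doubles the 10 genes did not move together. XERO2 and LEA14 were highest in the same 4 genotypes, ein5-1 dcl4-2 dcl2-1, ein5-1 dcl2-1, ski2-2 dcl2-1 and dcl2-1. There XERO2 was at 5.91 to 15.3 FPKM and LEA14 at 240 to 340.2 FPKM, against 1.37 to 3.51 FPKM and 119 to 175 FPKM in ein5-1, ski2-2, ski2-2 dcl4-2 dcl2-1, dcl4-2 and Col-0. All 4 carry dcl2-1, but ski2-2 dcl4-2 dcl2-1, which carries it too, was low for both genes. The same 4 genotypes had the lowest CCA1, a clock gene of the morning, at 3.32 to 9.34 FPKM, against 85.5 to 180 FPKM in the other 5, although all share a labelled hour of collection. PRR5 and ELF4, clock genes of later hours, were high in those 4, at 15.1 to 31.1 and 47.8 to 97.7 FPKM, against 0.117 to 0.568 and 1.98 to 5.03 FPKM in the other 5. The dcl4-2 doubles, where all 10 genes peak, differed from Col-0 in the clock too: in ein5-1 dcl4-2 and ski2-2 dcl4-2 PRR5 was at 11.9 and 12.7 FPKM, against 0.391 FPKM in Col-0, and ELF4 at 81.6 and 47.4 FPKM, against 3.77 FPKM. The morning genes were at 69.3 and 80.0 FPKM (CCA1) and 148 and 115 FPKM (LHY) in these doubles, against 102 and 61.1 FPKM in Col-0. The part of clock phase in the LEA levels was not tested. LEA4-5 went with another set: it was at 5.56 FPKM in ein5-1, 3.02 FPKM in ski2-2 and 2.83 FPKM in ski2-2 dcl4-2 dcl2-1. In the other 6 it was at most 0.818 FPKM. CCA1 and LHY were likewise highest of the 9 genotypes in ein5-1, ski2-2 and ski2-2 dcl4-2 dcl2-1. There CCA1 was at 165 to 180 FPKM, against 85.5 FPKM in dcl4-2 and 102 FPKM in Col-0. LHY was at 188 to 232 FPKM there, against 47.3 FPKM in dcl4-2 and 61.1 FPKM in Col-0. The match with LEA4-5 was not tested. RAB18 was also highest in ein5-1 and ski2-2, at 59.1 and 49.1 FPKM, against 27.2 FPKM in Col-0.

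By size alone, XERO2 and LEA14 were the 2 genes at least 1 higher on the log2(FPKM + 1) scale than Col-0 in each of dcl2-1 (5.09% of all genes), ein5-1 dcl2-1 (5.64%), ski2-2 dcl2-1 (4.99%) and ein5-1 dcl4-2 dcl2-1 (4.71%). LEA4-5 and RAB18 passed in ein5-1 (739 of 18475 genes did). LEA4-5 was the only gene of the 10 in ski2-2 (2.90%) and in ski2-2 dcl4-2 dcl2-1 (2.84%), and none passed in dcl4-2 (1.04%). Relative to ein5-1, ein5-1 dcl2-1 had XERO2 higher (8.41% of genes) and LEA4-5 lower (8.28%), and the same 2 genes passed in ski2-2 dcl2-1 relative to ski2-2 (7.96% and 7.58%).

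**Figure D5:**
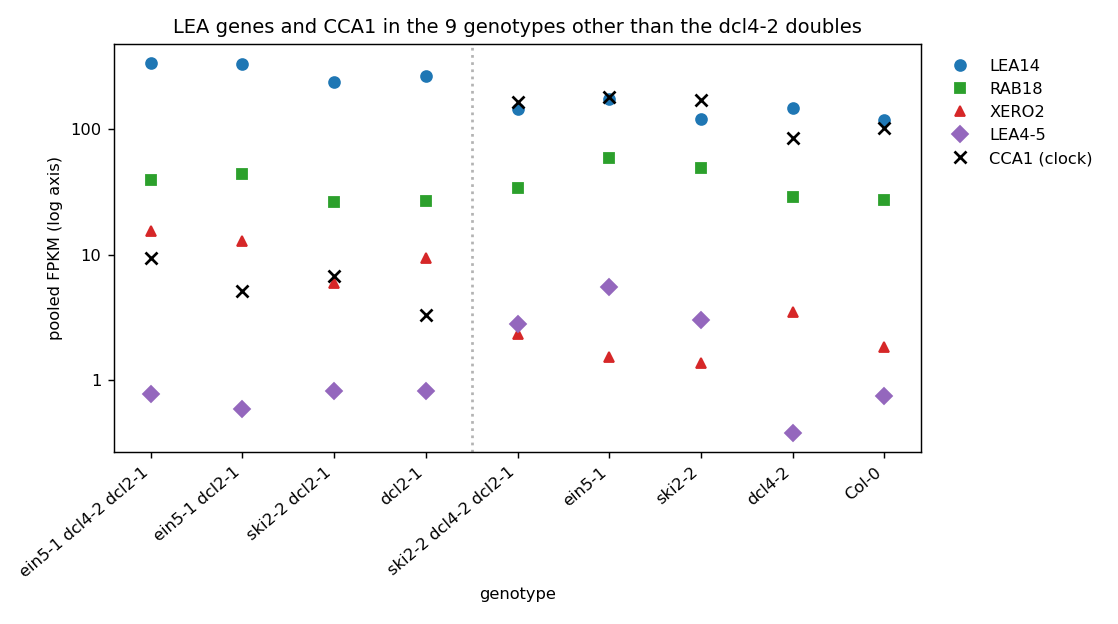
Pooled FPKM (log axis) of LEA14, RAB18, XERO2, LEA4-5 and the clock gene CCA1 in the 9 genotypes other than ein5-1 dcl4-2 and ski2-2 dcl4-2. Left of the dotted line stand the 4 genotypes with CCA1 under 10 FPKM, where LEA14 and XERO2 are highest and LEA4-5 is under 1 FPKM.

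Pearson correlations between pairs of the 10 genes, on log2(FPKM + 1), ran from 0.63 to 0.99 over the 11 genotypes, with a median of 0.92. Over the 9 genotypes without the doubles they ran from -0.64 to 0.94 with a median of 0.07, and 21 of 45 pairs were below 0. LEA14 with XERO2 was the highest of these at 0.94 and LEA4-5 with XERO2 the lowest. The points are pooled values that share libraries across genes, and several of the genes are near 0 in all 9, so these are descriptions.

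Of the 42 LEA catalogue genes not among the 10, 16 rose and 2 fell in ein5-1 dcl4-2 over Col-0 (20.4% and 16.3% of all genes tested), and 13 rose and 1 fell in ski2-2 dcl4-2 over Col-0 (15.1% and 13.8%), according to the authors' deposited table. Those shares are over genes that reached 1 FPKM, as 25 and 26 of the 42 did, and the others could not be called. The median differences of the 42 were 0.75 and 0.76 on the log2(FPKM + 1) scale. SAG21, a mitochondrial LEA protein, was at 2378 FPKM in ein5-1 dcl4-2 and 472 FPKM in ski2-2 dcl4-2, against 36.5 FPKM in Col-0. GEA6, the seed protein EM6, was at 38.5 and 5.56 FPKM in the 2 doubles, against a listed 0 in Col-0. DI21 was at 172 and 650.3 FPKM, against 33.1 FPKM. The dehydrin gene XERO1, which lies 313 bases from XERO2 with no gene between, was at 12.8 and 14.1 FPKM in the doubles and at most 0.261 FPKM in the other 9 genotypes. RD29A, which lies 1185 bases from RD29B and has both ABA and cold inputs, was at 192 and 313 FPKM in the doubles, against 19.0 FPKM in Col-0, and at 21.8 to 101 FPKM in the 2 triples.

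By class, with no test between classes of 2 to 15 genes, 5 of 8 other dehydrins rose in ein5-1 dcl4-2 over Col-0 (20.4% of all genes), COR47, ERD10, ERD14, XERO1 and AT4G38410, and the dehydrin AT1G54410 fell, according to the authors' deposited table. The same table has 4 of the 8 rising in ski2-2 dcl4-2 (15.1% of all genes), COR47, ERD10, ERD14 and XERO1. COR47, ERD10 and ERD14 were at 224, 247 and 686 FPKM there, and at 834, 468 and 1179 FPKM in ein5-1 dcl4-2. Outside the doubles COR47 and ERD10 reached 383 and 251 FPKM in ein5-1 dcl4-2 dcl2-1, and ERD14 735 FPKM in ein5-1 dcl2-1. In ski2-2 dcl4-2 these genes were thus not above all other genotypes, unlike XERO1. AT1G54410 was at 1102 FPKM in ein5-1 dcl4-2 and 1203 FPKM in ski2-2 dcl4-2, against 2482 FPKM in Col-0, and it fell in both. AT2G46140, of the LEA_2 class like LEA14, fell in ein5-1 dcl4-2, to 6.25 FPKM against 15.6 FPKM in Col-0. It was at 15.8 FPKM in ski2-2 dcl4-2. In the LEA_4 class 6 of 15 others rose in ein5-1 dcl4-2 and 5 of 15 in ski2-2 dcl4-2 over Col-0, the cold-regulated COR15A and COR15B among them, according to the authors' deposited table. Of the LEA_3 class, 3 and 2 of 4 others rose in ein5-1 dcl4-2 and ski2-2 dcl4-2, and of the LEA_5 class 1 and 2 of 2, according to the authors' deposited table. None of the 3 PvLEA18 genes was called over Col-0 in either double. The 6 seed maturation protein (SMP) genes were all under 1 FPKM in both doubles and Col-0, so none could be called.

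Many regulators of the ABA pathway also rose. Of 38 genes for ABA synthesis, breakdown, signalling and transcription, 24 rose and 1 fell in each of ein5-1 dcl4-2 and ski2-2 dcl4-2 over Col-0, according to the authors' deposited table, with median differences of 1.32 and 1.40. Of the 38, 32 and 30 reached 1 FPKM in these comparisons. Among all genes tested there, 20.4% and 15.1% rose, 16.3% and 13.8% fell, and the median differences were 0.13 and 0.06. NCED3, the enzyme that limits ABA synthesis, was at 47.4 FPKM in ein5-1 dcl4-2 and 20.8 FPKM in ski2-2 dcl4-2, against 1.49 FPKM in Col-0. HAI1 and HAI2 are PP2C phosphatases that ABA itself induces. HAI1 was at 150.1 and 125 FPKM in the doubles, against 1.85 FPKM in Col-0, and HAI2 at 32.3 and 81.1 FPKM, against 0.509 FPKM. AFP1, a protein that binds and restrains the bZIP factor ABI5, was at 62.5 and 58.3 FPKM, against 0.970 FPKM. ABA2, a dehydrogenase of ABA synthesis, fell in both, at 15.4 and 13.2 FPKM, against 37.6 FPKM in Col-0. The seed regulators were low throughout: ABI4 and LEC1 were listed at 0 in all 11 genotypes, and ABI3 and LEC2 were at most 0.0267 and 0.349 FPKM. FUS3 was at 0.0549 FPKM in ein5-1 dcl4-2 and 0.905 FPKM in ski2-2 dcl4-2, its highest, against 0.439 FPKM in Col-0. These 5 were chosen after their values were seen.

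Of 18 other targets of ABA and drought, 16 rose in ein5-1 dcl4-2 over Col-0 (20.4% of all genes), according to the authors' deposited table. The same table has 15 of the 18 rising in ski2-2 dcl4-2 over Col-0 (15.1% of all genes). None of these targets fell in either double, where 16.3% and 13.8% of all genes fell. The lipid transfer protein genes LTP4 and LTP3 led them, LTP4 with 912 and 1376 FPKM in the doubles, against 2.91 FPKM in Col-0, and LTP3 with 613 and 901 FPKM, against 5.81 FPKM. TSPO, a membrane protein of stressed cells, was at 80.0 and 81.1 FPKM, against 0.205 FPKM, and KIN1, a cold and ABA target, at 174 and 236 FPKM, against 2.84 FPKM. Both doubles stood above the other 9 genotypes for 12 of these 18 genes, 22 of the 38 regulators and 19 of the 42 other LEA genes, against 18.7% of all genes that reached 1 FPKM in some genotype. Of these lists 18, 32 and 32 genes did.

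Genes whose profile over the 11 genotypes was most like the mean profile of the 10 were ranked by Pearson correlation among 16676 genes that reached 5 FPKM. The first 8 were AT3G49551, AT5G50360, SULTR1;2, AT1G13608, MIR828, AT1G30720, AFP3 and NADP-ME1, with r of 0.989 to 0.991. AFP3, a relative of AFP1, was at 81.2 and 87.9 FPKM in the doubles and 4.26 to 10.3 FPKM elsewhere. NADP-ME1, a malic enzyme, was at 20.2 and 36.4 FPKM and at most 0.104 FPKM elsewhere. AT3G49551, AT1G13608 and MIR828, the precursor of a microRNA, were listed at 0 in all 9 other genotypes. Since 212 genes reached an r of 0.95, the ranking mainly reflects being high in the 2 doubles.

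Markers of other organs were read beside these levels, since LEA genes are used in seeds and roots too. The 13 seed storage and oil body markers summed to 5.88 FPKM in ein5-1 dcl4-2 and 25.3 FPKM in ski2-2 dcl4-2, against 0.491 to 1.42 FPKM in the other 9 genotypes. Over Col-0, 1 of the 13 rose in ein5-1 dcl4-2 (20.4% of all genes) and 5 rose in ski2-2 dcl4-2 (15.1%), according to the authors' deposited table, where 2 and 7 of the 13 reached 1 FPKM and could be called. The storage protein genes CRU2, SESA2 and SESA3 were listed at 0 in ein5-1 dcl4-2 and SESA4 in ski2-2 dcl4-2, and the highest marker was the oleosin OLEO2 at 2.16 and 5.48 FPKM. The 7 root markers summed to 268 and 764 FPKM, against 17.3 to 75.8 FPKM in the other 9, with PYK10 at 254 and 673 FPKM, against 38.8 FPKM in Col-0. None of the 7 was listed at 0 in the doubles, and 3 rose in ein5-1 dcl4-2 and 6 in ski2-2 dcl4-2 over Col-0, according to the authors' deposited table. The 5 leaf markers, which the labelled tissue should hold, summed to 7357 and 10706 FPKM in the doubles. In the other 9 they summed to 37833 to 66154 FPKM. All 5 fell in both doubles over Col-0 (16.3% and 13.8% of all genes tested), according to the authors' deposited table. The 5 flower markers summed to 11.2 and 5.03 FPKM, against 5.23 to 25.4 FPKM in the other 9. Of them 1 fell in ein5-1 dcl4-2 (16.3% of all genes) and 2 in ski2-2 dcl4-2 (13.8%) over Col-0, according to the authors' deposited table. The part of these organ markers in the LEA levels was not tested.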

How the data were processed

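The members and lists were chosen with earlier results of these data known. Per the submitters' processing notes, reads were aligned to TAIR10 with TopHat2 2.1.1 and values came from Cuffdiff, whose version is not given in the sources used here. FPKM values in the deposited table are the authors' pooled values, 1 per genotype with 3 libraries, without library values or counts, so depth is unknown and no test between libraries was run as planned. The log2 ratio and the p-value and q-value columns are the authors' own, deposited for 8 comparisons. The log2 ratio of the listed FPKM minus the authors' log2 ratio had a median of -0.0132 for ski2-2 dcl4-2 over Col-0 and -0.0163 over dcl4-2. In 11 further comparisons genes are described by a log2(FPKM + 1) difference of at least 1 in size. No fold was computed against a listed 0, and a gene listed at 0 on one side was called on its q and the FPKM minimum.

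Gene names came from RefSeq TAIR10.1, which matched 32810 of 33557 identifiers. Promoter windows were cut from its genome and annotation by gene identifier. The deposited table has no coordinates. Named genes were the 10 members, from each list the 4 largest differences from Col-0 among called genes in either double and up to 2 of opposite sign, the 8 genes with the most similar profile, and clock, mutated and marker genes. RD29A and the other neighbours, COR47, ERD10, ERD14, AT4G38410, COR15A and COR15B were named after their values were seen. Code was tested on simulated data. Tools were Python 3.11.15, numpy 2.4.6, pandas 2.3.3 and matplotlib 3.10.9. Alternatives were a pseudocount of 0.1, FPKM minimums of 5 or none, a q of 0.01, no minimum ratio, log2(FPKM + 1) differences replacing the ratio, median-of-ratios scaling, quantile normalization, omission of RD29B, and other motif and likeness settings.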

Additional observations from a re-analysis of the deposited data

How the results depend on the processing

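No paired analysis was possible because the deposited table holds pooled values and none per library. For the same reason leaving out each library could not be run. Recomputed under the other FPKM minimums, thresholds and scalings were the called counts and median differences of the 10 genes, and the counts of other LEA genes, ABA regulators and ABA targets that rose over Col-0 in the dcl4-2 doubles. Under quantile normalization and median-of-ratios scaling only the size condition was recomputed. The authors' q and the minimum on unscaled FPKM were kept, so these counts could change little and do not show how calls depend on normalization. All counts stayed within 1.5 times, and the medians kept their sign and moved by at most 0.5 on the log2 scale or 1.5 times, with 1 exception: the median of the 10 genes in ein5-1 dcl2-1 over ein5-1 was 0.98 with a pseudocount of 0.1 FPKM, against 0.30 with 1 FPKM. A pseudocount of 0.1 also raised the differences of the lowest genes over Col-0, LEA4-1 to 1.85 and 2.47 and AT3G15670 to 3.20 and 4.17 in ein5-1 dcl4-2 and ski2-2 dcl4-2. Quantile normalization lowered the median of all genes in ein5-1 dcl4-2 over Col-0 by 0.21 on the log2 scale (a shift of -0.21), and the median of the 10 genes was then 5.19. In ski2-2 dcl4-2 over Col-0 it shifted the median of all genes by -0.06, and the median of the 10 genes was 6.25, against 5.50 without it. The list of most similar genes depends on its measure: 1 of the 8 was kept with Spearman correlation, and 0 over the 9 genotypes without the doubles, a setting chosen after seeing the data. The 500-base window, also added later, gave the same count of genes with an ABRE core (35.5% of all promoters), and a DRE core in all 10 genes (21.4% of all promoters). Counts of genes that fell over Col-0, marker, class and size-alone counts, the medians of the other lists and the excess over single mutants were not recomputed. Without library values and depth, the precision of low FPKM is unknown.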

Other observations

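Further LEA genes with no call over Col-0 had large listed differences. AT3G17520, of the LEA_4 class, was at 119 FPKM in ein5-1 dcl4-2 and 87.7 FPKM in ski2-2 dcl4-2, against 0.0779 FPKM in Col-0, and AT2G23110 was at 43.1 and 2.59 FPKM, against 0.105 FPKM. According to the authors' deposited table both genes rose in ein5-1 dcl4-2 over ein5-1 and fell in each triple relative to its double. They had no call in either double over dcl4-2, or in ski2-2 dcl4-2 over ski2-2. Both were chosen after their values were seen. COR15B followed the split seen for XERO2 and LEA14, with 254 to 355 FPKM in ein5-1 dcl4-2 dcl2-1, ein5-1 dcl2-1, ski2-2 dcl2-1 and dcl2-1, against 3.20 to 18.7 FPKM in the other 5 genotypes outside the dcl4-2 doubles. In ein5-1 dcl4-2 and ski2-2 dcl4-2 it was at 73.9 and 51.6 FPKM. LEA3 (AT1G02820) ran the other way, at 6.20 to 11.4 FPKM in those 4 genotypes and 48.1 to 173 FPKM in the other 5, and was at 131 and 28.0 FPKM in the dcl4-2 doubles.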
